A study of Mus musculus with 8 samples.

Results

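The Wnt ligands, their receptors, their secreted antagonists and the R-spondins were followed across a mouse model of supratentorial ependymoma, together with Axin2, Lef1 and Tcf7. The 47 genes, of 55414 in the deposited table, were taken by symbol and comprised 19 Wnt ligands, 12 receptors (10 Frizzled genes, Lrp5 and Lrp6), 9 antagonists (4 Dkk genes, 4 Sfrp genes and Wif1), 4 R-spondins and 3 genes of feedback and transcription. The rule for membership used symbols and no measured value, but it was set with earlier results of these data known. Of the 47, 44 had enough counts to be tested. The exceptions were the antagonists Dkk1 and Dkk4 and the ligand Wnt8a, whose counts reached at most 6, 2 and 8 in any library. Frzb, the gene of a further Frizzled-related antagonist, does not carry an Sfrp symbol and was counted with other secreted regulators.

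RNA was sequenced from tumor and from naive brain tissue of mice whose labels all give the ZFTA-RELA fusion as genotype, so the naive brain libraries carry that label as well. The 8 libraries formed 4 groups of 2: naive brain and tumor after vehicle, and naive brain and tumor after MRX-2843, a drug that blocks the kinases MERTK and FLT3. Mice with tumors seen by MRI got MRX-2843 at 50 mg/kg or vehicle by gavage each day for 5 days, and brains were taken 1 h after the last dose. Strain, age, sex and the way in which the fusion was introduced are not given in the sources used here, and they do not say whether the tissue called naive lay in the same brains as the tumors. Each pair of libraries is labelled as duplicates with no word on separate animals, so p-values measure only the spread between these libraries, which may be technical.

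Wnt proteins are lipid-modified secreted ligands that bind Frizzled receptors. With the co-receptors Lrp5 and Lrp6 they stop the destruction of beta-catenin, which then acts with Lef1, Tcf7 and related factors on target genes, and with other co-receptors they act on cell polarity and movement instead. Sfrp proteins and Wif1 bind the ligands, Dkk1, Dkk2 and Dkk4 bind Lrp5 and Lrp6, and R-spondins raise the number of receptors on the cell surface. In the developing forebrain the pathway patterns the dorsal midline and the hippocampus, and in the brain's vessels it maintains the barrier.

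Promoter sequences of 4 of these genes are shown because their RNA differed between tumor and brain or because beta-catenin is known to act on them. They run 5′ to 3′ over the 250 bases before the start site and are RefSeq's on GRCm38.p6. Capitals mark the letters CTTTGA or CTTTGT on either strand (TCAAAG and ACAAAG on the strand printed), the core bound by factors of the Lef1 and Tcf7 family; no matches overlapped. The Axin2 window is chr11:108920099-108920348 (+ strand), that of an internal Lef1 start is chr3:131156044-131156293 (+ strand), that of Fzd1 is chr5:4758217-4758466 (- strand) and that of an internal Wnt5b start is chr6:119449387-119449636 (- strand).
Axin2: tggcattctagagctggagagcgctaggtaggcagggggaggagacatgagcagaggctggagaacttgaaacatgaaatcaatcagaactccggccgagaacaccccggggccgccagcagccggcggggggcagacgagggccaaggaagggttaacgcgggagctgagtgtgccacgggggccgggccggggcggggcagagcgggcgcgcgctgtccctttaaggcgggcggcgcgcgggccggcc
Lef1: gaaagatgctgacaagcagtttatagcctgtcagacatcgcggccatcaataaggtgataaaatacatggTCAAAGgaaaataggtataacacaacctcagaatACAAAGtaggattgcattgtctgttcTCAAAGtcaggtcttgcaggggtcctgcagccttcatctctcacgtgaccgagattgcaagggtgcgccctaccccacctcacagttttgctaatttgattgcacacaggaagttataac
Fzd1: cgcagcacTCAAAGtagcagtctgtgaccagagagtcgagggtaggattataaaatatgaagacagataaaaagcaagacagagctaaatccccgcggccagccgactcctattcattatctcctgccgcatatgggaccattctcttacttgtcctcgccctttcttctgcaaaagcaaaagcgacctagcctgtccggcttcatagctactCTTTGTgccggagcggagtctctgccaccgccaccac
Wnt5b: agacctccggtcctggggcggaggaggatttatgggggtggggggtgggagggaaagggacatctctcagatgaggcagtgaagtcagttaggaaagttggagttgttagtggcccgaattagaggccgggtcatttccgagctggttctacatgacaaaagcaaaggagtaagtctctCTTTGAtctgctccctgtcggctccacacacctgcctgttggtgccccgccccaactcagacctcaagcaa

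The Axin2 window held neither set of letters, the Lef1 window held 3 matches, the Fzd1 window held 2 and the Wnt5b window held 1. For Lef1, Fzd1 and Wnt5b only windows with a match are shown, so their matches follow from that choice. The internal starts of Lef1 and Wnt5b are shown for that reason. The other 3 windows of Lef1 and the other 2 of Wnt5b, which include those at the outer starts, held none. RefSeq windows that also take in 50 bases after the start, 300 bases in all, were at hand for 31 of the 47 genes, with 38 start sites. CTTTGA was found in 13.2% of those 38 windows and in 16% of all 32817 mouse windows, and CTTTGT in 18.4% and 18.7%. At least 1 of them was found in 23.7% and 31.2%. The windows of the Wnt genes were richer in G and C, with a median of 67.3% against 52.7% over all windows. A match is a description of letters and not a binding site, and a window without one says nothing of sites elsewhere.

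Library totals ran from 51150569 to 112938462 counts, and the 47 genes held 0.0351 to 0.131% of them. Levels are given as CPM (TMM-normalised counts per library of equal size), and 3 counts, the limit that a count of 0 allows, correspond to 0.0281 to 0.0615 CPM. Vehicle tumor stood apart from the other groups. Across 24724 genes the MRX-2843 tumor libraries correlated with vehicle naive brain at r = 0.985 to 0.986 and with vehicle tumor at r = 0.834 to 0.837, and mitochondrially encoded genes took 3.26 to 3.37% of counts in vehicle tumor and 14.7 to 18.5% elsewhere. Dividing cell markers (6 genes) summed to 222 CPM in vehicle tumor, 19.7 to 25.1 in MRX-2843 tumor and 2.14 to 4.40 in the naive brain groups. Xist, expressed from the inactive X chromosome, was at 526 to 795 CPM in all MRX-2843 libraries and 0.408 to 2.88 in all vehicle libraries, while the Y-linked Ddx3y was at 0 and at 32.3 to 76.2. The labels' column names carry the number 909 for every MRX-2843 library and 914 or 915 for the vehicle libraries, unexplained, so that treatment cannot be told apart from sex or from what that number stands for.

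In vehicle tumor 10 of the 12 receptors, 3 Sfrp antagonists and 5 ligands were higher than in vehicle naive brain, while 7 ligands were lower, among them Wnt7b, Wnt4 and Wnt9a, which had the highest ligand levels per length in vehicle naive brain. Of the 44 genes tested, 24 rose and 9 fell in edgeR's quasi-likelihood test (Benjamini-Hochberg adjusted p under 0.05), beside 29.3% and 30.8% of all 24356 genes tested and 60.1% in either direction. The median log2 fold change was 1.05 over the 44 genes and -0.03 over all genes. Receptors summed to 183 and 180 CPM in the vehicle naive brain libraries and to 450 and 465 in vehicle tumor, antagonists to 264 and 244 against 415 and 425, and ligands to 143 and 140 against 171 and 178. In bulk tissue, fewer cells of a type and less RNA per cell cannot be told apart.

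**Figure D1:**
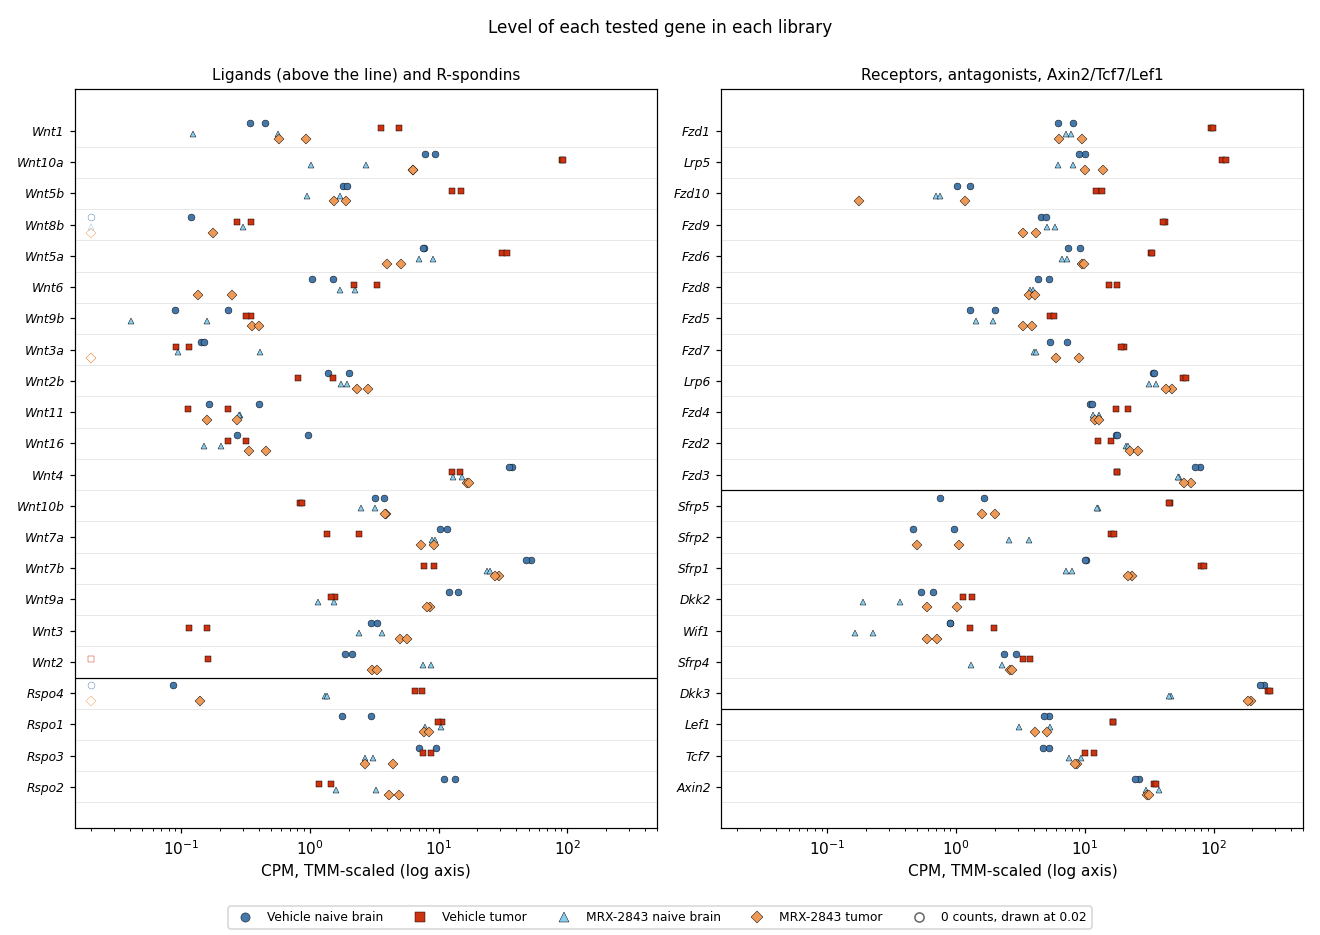
Level of each of the 44 tested genes in each of the 8 libraries, in CPM on a log axis; each symbol is a library and open symbols at 0.02 are libraries with 0 counts. The red squares of vehicle tumor lie to the right of every other symbol for Fzd1, Lrp5, Fzd9, Wnt10a and Sfrp5 and to the left for Wnt3, Wnt7a, Wnt7b and Fzd3.

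Wnt10a, a ligand with roles in tooth, hair and skin, had the highest level of the ligands in vehicle tumor. It was at 9.39 and 7.79 CPM in vehicle naive brain, 91.7 and 92.5 in vehicle tumor, 1.03 and 2.72 in MRX-2843 naive brain, then 6.36 and 6.27 in MRX-2843 tumor. The vehicle tumor libraries stood far above all others and the groups did not overlap. The log2 fold change of vehicle tumor over vehicle naive brain was 3.42 ± 0.22 (SE, adjusted p = 2.2e-09).

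Wnt5a and Wnt5b, ligands best known for signalling without beta-catenin, rose together. Wnt5a was at 7.66 and 7.57 CPM in vehicle naive brain, 31.1 and 34.2 in vehicle tumor, 8.98 and 7.05 in MRX-2843 naive brain, then 3.94 and 5.13 in MRX-2843 tumor. Wnt5b was at 1.79 and 1.94, 14.8 and 12.7, 1.72 and 0.956, and 1.90 and 1.53 CPM in the same order. For each gene vehicle tumor was the high group and overlapped none of the others, with log2 fold changes over vehicle naive brain of 2.10 ± 0.16 for Wnt5a (adjusted p = 2.7e-08) and 2.88 ± 0.29 for Wnt5b (adjusted p = 5.7e-07).

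Wnt1, the ligand that patterns the boundary of midbrain and hindbrain, rose from a low level. It was at 0.445 and 0.343 CPM in vehicle naive brain, against 3.58 and 4.96 in vehicle tumor, and at 0.123 to 0.932 CPM in the 4 MRX-2843 libraries. The vehicle tumor libraries were again the highest, and the log2 fold change was 3.43 ± 0.61 (adjusted p = 0.00018). Wnt6 was called higher at 1.11 ± 0.45 (adjusted p = 0.0458), a call that was lost under 6 of the other settings tried, among them without vehicle naive brain library 1 or 2 (1.41 and 0.86), without vehicle tumor library 2 (0.78) and without MRX-2843 naive brain library 2 (1.11).

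Of the 18 ligands tested, 7 (38.9%) fell in vehicle tumor and 5 (27.8%) rose, beside 30.8% and 29.3% of all genes tested. Wnt7b, which with Wnt7a guides vessels into the brain and keeps the barrier, was the ligand with the highest level per length in vehicle naive brain (10.2 ± 0.6 CPM per kb of exon, SD, n = 2). It was at 51.9 and 47.6 CPM in vehicle naive brain, 9.23 and 7.75 in vehicle tumor, 23.9 and 24.9 in MRX-2843 naive brain, then 29.6 and 27.6 in MRX-2843 tumor. Vehicle tumor was lowest and vehicle naive brain highest, and no groups overlapped. On the log2 scale vehicle tumor was lower than vehicle naive brain by 2.55 (SE 0.11, adjusted p = 3.1e-11). Wnt7a was at 10.3 and 11.7 CPM in vehicle naive brain, against 1.36 and 2.40 in vehicle tumor, with the 4 MRX-2843 libraries at 7.35 to 9.32, and its log2 fold change was -2.54 ± 0.25 (adjusted p = 3.7e-07).

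Wnt4, known for roles in kidney and ovary, had the next highest ligand level per length in vehicle naive brain (8.66 CPM per kb). It was at 37.1 and 35.5 CPM there and at 12.6 and 14.7 in vehicle tumor (log2 fold change -1.41 ± 0.12, adjusted p = 1.1e-07). Wnt3, which is needed for gastrulation and later acts in adult hippocampal neurogenesis, was at 2.99 and 3.31 CPM in vehicle naive brain, 0.116 and 0.159 in vehicle tumor, 3.61 and 2.40 in MRX-2843 naive brain, then 5.03 and 5.65 in MRX-2843 tumor. Vehicle tumor was thus the low group for Wnt3, at a log2 fold change of -4.50 ± 0.40 (adjusted p = 1.2e-07). Wnt9a, known from joint formation, was at 12.1 and 14.1 CPM in vehicle naive brain against 1.57 and 1.46 in vehicle tumor (-3.11 ± 0.23, adjusted p = 1.3e-08), and Wnt10b, known from bone and fat, was at 3.19 and 3.75 against 0.833 and 0.874 (-2.02 ± 0.32, adjusted p = 6.2e-05).

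Wnt2 fell as well, at 1.87 and 2.12 CPM in vehicle naive brain against 14 counts in 1 vehicle tumor library (0.162 CPM) and 0 in the other. Its fitted log2 fold change of -4.60 ± 0.62 (adjusted p = 1.3e-05) became -10.14 without vehicle tumor library 1 and rests on that library. The other 6 ligands, Wnt2b, Wnt3a, Wnt8b, Wnt9b, Wnt11 and Wnt16, did not pass the test in this comparison, and all but Wnt2b stayed under 1 CPM in every library.

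Neighbouring ligand genes were compared as well. In the GENCODE M21 annotation on GRCm38, 4 pairs of the Wnt genes lie within 25 kb with no protein-coding gene between them. Wnt10b (chr15:98770712-98778150, - strand) and Wnt1 (chr15:98789857-98793837, + strand) lie 11706 bases apart, and in vehicle tumor Wnt10b fell by 2.02 on the log2 scale while Wnt1 rose by 3.43. Wnt6 (chr1:74771892-74785322, + strand) and Wnt10a (chr1:74791516-74804179, + strand) lie 6193 bases apart, and Wnt6 was at 2.20 and 3.33 CPM in vehicle tumor where Wnt10a was at 91.7 and 92.5. In MRX-2843 tumor Wnt6 was at 0.246 and 0.135 CPM, the lowest of its 4 groups, while Wnt10a was within the range of the naive brain libraries. In the pairs on chromosome 11, Wnt3a with Wnt9a (16175 bases apart) and Wnt9b with Wnt3 (24328 bases apart), Wnt9a and Wnt3 fell, and Wnt3a and Wnt9b did not pass the test and were under 0.42 CPM in all libraries.

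**Figure D2:**
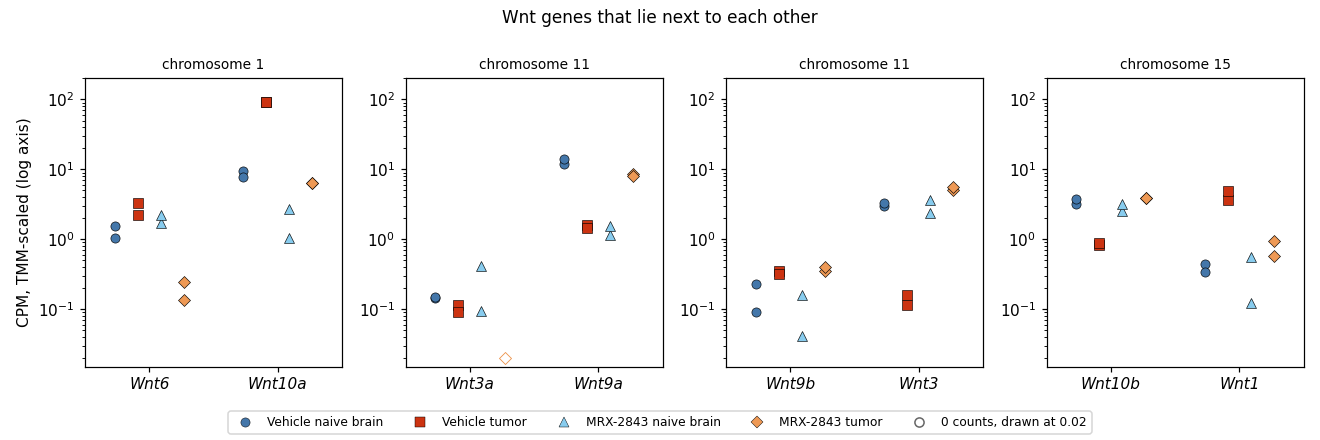
Level in CPM (log axis) of the 4 pairs of neighbouring Wnt genes in each library; open symbols at 0.02 are libraries with 0 counts. On chromosome 15 the vehicle tumor squares are lowest for Wnt10b (0.833 and 0.874) and highest for Wnt1 (3.58 and 4.96).

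Of the 12 receptor genes, 10 rose in vehicle tumor, Fzd3 fell and Fzd2 did not pass the test. Fzd1, a receptor that acts through beta-catenin, was at 6.23 and 8.08 CPM in vehicle naive brain, 95.6 and 99.8 in vehicle tumor, 7.75 and 7.18 in MRX-2843 naive brain, then 9.42 and 6.31 in MRX-2843 tumor. The other 3 groups overlapped each other and vehicle tumor lay far above them, at a log2 fold change over vehicle naive brain of 3.77 ± 0.16 (adjusted p = 2.5e-11).

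Lrp5, the co-receptor known from bone mass and eye vessels, was at 10.1 and 8.97 CPM in vehicle naive brain, 116 and 124 in vehicle tumor, 6.17 and 8.06 in MRX-2843 naive brain, then 9.99 and 13.9 in MRX-2843 tumor. Lrp6, its close relative and the more widely needed co-receptor, was at 33.8 and 34.4 CPM in vehicle naive brain, 57.9 and 61.6 in vehicle tumor, 31.3 and 35.4 in MRX-2843 naive brain, then 47.8 and 43.1 in MRX-2843 tumor. Vehicle tumor was the highest group for each and overlapped no other, but the log2 fold change was 3.65 ± 0.15 for Lrp5 (adjusted p = 1.2e-11) and 0.81 ± 0.09 for Lrp6 (adjusted p = 1.2e-06). Per length, Lrp6 was above Lrp5 in vehicle naive brain (2.49 ± 0.03 against 0.976 ± 0.078 CPM per kb, SD, n = 2) and below it in vehicle tumor (4.37 ± 0.19 against 12.3 ± 0.6).

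Fzd9, a Frizzled gene known from bone and hippocampus, was at 4.59 and 5.01 CPM in vehicle naive brain, 42.2 and 40.4 in vehicle tumor, 5.13 and 5.89 in MRX-2843 naive brain, then 3.29 and 4.15 in MRX-2843 tumor. Fzd10 was at 1.29 and 1.01 CPM in vehicle naive brain, against 12.1 and 13.7 in vehicle tumor, with the MRX-2843 libraries at 0.176 to 1.18. Vehicle tumor stood above every other library for these genes too, and the log2 fold changes were 3.10 ± 0.16 for Fzd9 (adjusted p = 1.3e-10) and 3.48 ± 0.50 for Fzd10 (adjusted p = 2.1e-05). The other receptors that rose were Fzd6, Fzd8, Fzd5, Fzd7 and Fzd4, with log2 fold changes of 1.99, 1.79, 1.76, 1.63 and 0.80 and adjusted p-values of at most 0.00021.

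Fzd3, the receptor that guides axons together with Celsr3, went the other way. It was at 78.2 and 71.8 CPM in vehicle naive brain, 17.8 and 17.7 in vehicle tumor, 54.0 and 53.0 in MRX-2843 naive brain, then 66.9 and 59.1 in MRX-2843 tumor. Vehicle tumor was the low group without overlap, at a log2 fold change of -2.08 ± 0.08 (adjusted p = 1e-11). Fzd2 was at 17.6 and 17.9 CPM in vehicle naive brain, against 15.9 and 12.7 in vehicle tumor (-0.31 ± 0.13, adjusted p = 0.0503), and it passed the test under 4 of the other settings. Per length the order of receptors therefore differed between these groups: Fzd3, Fzd2 and Lrp6 led in vehicle naive brain at 5.86, 4.85 and 2.49 CPM per kb, and Fzd1, Fzd9 and Lrp5 led in vehicle tumor at 23.3, 18 and 12.3.

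**Figure D3:**
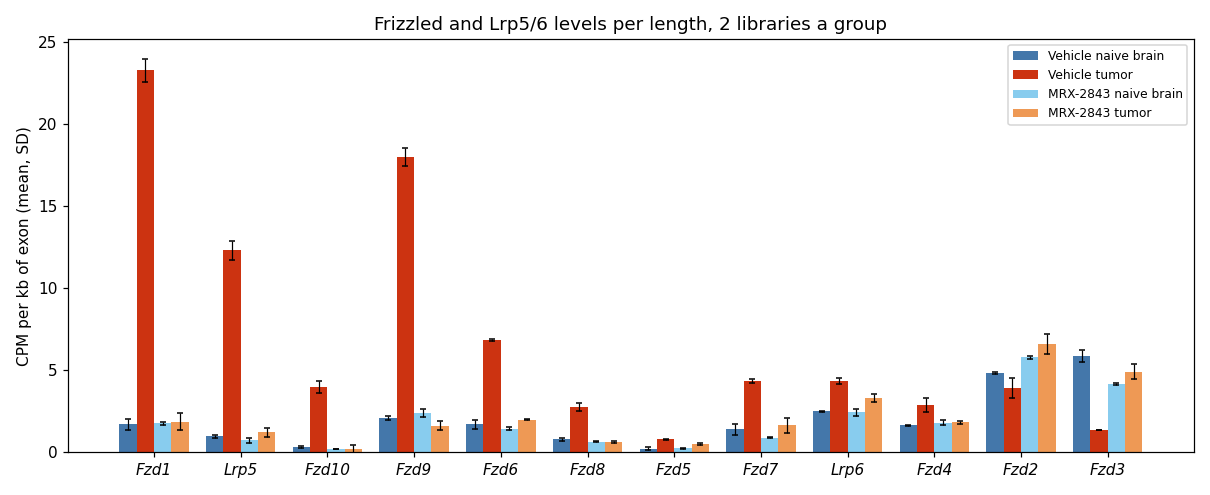
Mean level per length of the 12 receptor genes in the 4 groups, in CPM per kb of exon, with bars from 0 and SD over 2 libraries. In vehicle tumor Fzd1 (23.3), Fzd9 (18) and Lrp5 (12.3) are the tallest bars, while Fzd3 (1.38) is lower there than in the other groups.

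Among the antagonists, 3 of the 4 Sfrp genes and Dkk3 rose in vehicle tumor and none of the 7 tested fell. Sfrp1, a soluble Frizzled-like protein that binds Wnts, was at 10.2 and 10.1 CPM in vehicle naive brain, 80.2 and 84.2 in vehicle tumor, 7.96 and 7.13 in MRX-2843 naive brain, then 23.2 and 21.8 in MRX-2843 tumor. Each tumor group was above each naive brain group, and vehicle tumor was above MRX-2843 tumor; the log2 fold change in the vehicle groups was 3.02 ± 0.10 (adjusted p = 1.1e-12).

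Sfrp5, a relative of Sfrp1, was at 0.746 and 1.64 CPM in vehicle naive brain, 46.1 and 44.8 in vehicle tumor, 12.6 and 12.5 in MRX-2843 naive brain, then 2.00 and 1.60 in MRX-2843 tumor. Sfrp2 was at 0.962 and 0.462, 16.03 and 16.8, 2.58 and 3.70, and 0.492 and 1.05 CPM in the same order. For each the vehicle tumor libraries were highest and the MRX-2843 naive brain libraries next, and the log2 fold changes of vehicle tumor over vehicle naive brain were 5.26 ± 0.25 for Sfrp5 (adjusted p = 5.7e-11) and 4.52 ± 0.38 for Sfrp2 (adjusted p = 6.1e-08).

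Dkk3, the divergent Dickkopf protein, which is not known as an Lrp6 antagonist in the way Dkk1 is, had the highest level per length of all 47 genes in each group. It was at 247 and 228 CPM in vehicle naive brain, 266 and 272 in vehicle tumor, 47.0 and 45.3 in MRX-2843 naive brain, then 194 and 184 in MRX-2843 tumor. Only MRX-2843 naive brain was far below the rest. The log2 fold change of vehicle tumor over vehicle naive brain was 0.18 ± 0.06 (adjusted p = 0.0136), was 0.44 with library totals in place of TMM, and was no longer called without vehicle naive brain library 2 or vehicle tumor library 2 (0.13 and 0.17). Dkk2, Sfrp4 and Wif1 were each under 4 CPM in all libraries and did not pass the test.

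Of the R-spondins, Rspo1 and Rspo4 rose, Rspo2 fell and Rspo3 did not pass the test. Rspo1 was at 2.99 and 1.79 CPM in vehicle naive brain, 10.6 and 9.87 in vehicle tumor, 10.5 and 7.82 in MRX-2843 naive brain, then 7.72 and 8.43 in MRX-2843 tumor. Vehicle naive brain was the low group, and the log2 fold change of vehicle tumor over it was 2.10 ± 0.24 (adjusted p = 2.5e-06). Rspo2 was at 10.9 and 13.3 CPM in vehicle naive brain, 1.46 and 1.18 in vehicle tumor, 1.60 and 3.26 in MRX-2843 naive brain, then 4.92 and 4.12 in MRX-2843 tumor. Here vehicle naive brain was the high group, at a log2 fold change of -3.20 ± 0.32 for vehicle tumor (adjusted p = 4.6e-07).

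Rspo4, known from nail development, had 6 and 0 counts in vehicle naive brain, 646 and 575 in vehicle tumor, 64 and 144 in MRX-2843 naive brain, then 8 and 0 in MRX-2843 tumor. Its fitted log2 fold change in the vehicle groups was 7.27 ± 0.84 (adjusted p = 2.4e-06) and became 12.01 without vehicle naive brain library 1, so its size is not settled by these libraries. Rspo3 was at 7.02 to 9.59 CPM in the 4 vehicle libraries, with overlapping groups, and at 2.67 to 4.41 in the 4 MRX-2843 libraries.

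Axin2, the feedback inhibitor that beta-catenin induces in most tissues, differed little between groups. It was at 26.2 and 24.7 CPM in vehicle naive brain, 34.8 and 35.4 in vehicle tumor, 37.9 and 29.9 in MRX-2843 naive brain, then 30.4 and 31.5 in MRX-2843 tumor. Vehicle naive brain was the lowest group, and vehicle tumor was higher than it by a log2 fold change of 0.46 ± 0.11 (adjusted p = 0.00198), or 0.72 with library totals.

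Lef1, a DNA-binding partner of beta-catenin, was at 5.28 and 4.78 CPM in vehicle naive brain, 16.5 and 16.6 in vehicle tumor, 3.06 and 5.33 in MRX-2843 naive brain, then 4.08 and 5.09 in MRX-2843 tumor. Its relative Tcf7 was at 4.77 and 5.27, 9.98 and 11.8, 7.53 and 9.30, and 8.69 and 8.40 CPM in the same order. Vehicle tumor was highest for each, with log2 fold changes over vehicle naive brain of 1.72 ± 0.24 for Lef1 (adjusted p = 1.4e-05) and 1.12 ± 0.18 for Tcf7 (adjusted p = 8e-05).

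Further genes of the pathway were counted in 6 lists, to be read against the 29.3% of all genes tested that rose and the 30.8% that fell. Of 10 genes known as targets of beta-catenin elsewhere, 7 rose in vehicle tumor and none fell, at a median log2 fold change of 1.67, led by Ccnd1, a cyclin of early cell cycle (3.66, adjusted p = 2.7e-14), Cd44, an adhesion receptor (4.58, adjusted p = 1e-13), the Dvl inhibitor Nkd2 (4.35, adjusted p = 6.2e-12) and the transcription factor Tbx3 (3.29, adjusted p = 2.9e-09). Ccnd1 and Cd44 also answer to other pathways. Of 17 genes of ligand secretion and co-reception, 12 rose and 3 fell: Wls, which carries Wnts to the cell surface, rose by 2.31 on the log2 scale (adjusted p = 1.6e-12), Kremen1, a receptor for Dkk proteins, rose by 2.96 (adjusted p = 1.5e-11), Reck, which presents Wnt7 ligands, rose by 2.17 (adjusted p = 3.6e-10), and Porcn, the enzyme that attaches the lipid to Wnts, fell by 1.79 (adjusted p = 4.3e-11).

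Of 14 nuclear cofactors, 9 rose and 4 fell, with Tcf7l2, the family member typical of thalamus and oligodendrocytes, at 3.25 (adjusted p = 2.4e-11). Of 17 destruction complex and transducer genes, 8 rose and 6 fell, among them beta-catenin itself, Ctnnb1 (0.82, adjusted p = 1e-09), and its scaffolds Apc (-1.76, adjusted p = 1.6e-12) and Apc2 (-2.97, adjusted p = 1.5e-13). Of 10 planar cell polarity genes, 4 rose and 5 fell, led by Celsr3, a neuronal cadherin of axon guidance (-5.37, adjusted p = 3.1e-15). Of 7 other secreted regulators tested, 3 rose and 2 fell, with Igfbp4, which can bind Frizzled and Lrp6, at 2.78 (adjusted p = 3.2e-14) and Dkkl1, a Dkk3-related protein, at -4.22 (adjusted p = 5.9e-09).

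Markers of several cell types moved with these genes in vehicle tumor. All 10 neuron markers fell, from summed levels of 7348 to 7482 CPM in vehicle naive brain to 527 to 532 in vehicle tumor, and all 8 oligodendrocyte markers fell, from 7424 to 7487 to 487 to 501. Of 9 mural and fibroblast markers, 8 rose, from 200 to 204 CPM to 10450 to 10580, all 8 endothelial markers rose, from 298 to 308 to 793, all 7 microglia markers rose, from 243 to 244 to 1801 to 1850, and all 7 macrophage and monocyte markers rose, from 32.6 to 36.9 to 430 to 438. Of the mural cell markers, Pdgfrb was at 23.8 and 25.01 CPM in vehicle naive brain, against 127 and 138 in vehicle tumor, and Rgs5 at 95.1 and 91.3 against 111 and 121, so that most of that sum lay in other genes. The choroid plexus list rose in sum, from 7.32 to 8.09 CPM to 169 to 170, with 1 of 7 genes higher and 2 lower, and Aqp1, singled out after its values were seen, held 165 CPM of it; its defining marker Ttr was at 3.10 and 3.49 CPM in vehicle naive brain, against 1.48 and 1.58 in vehicle tumor. Of 6 oligodendrocyte precursor markers, 5 rose and 1 fell, from 244 to 251 CPM in sum to 1008 to 1028. Other lists did not move one way: of 8 astrocyte markers 3 rose and 4 fell. Of 7 ependymal markers 2 rose, 1 fell and 4 were not called, and the list went from 8.98 to 9.86 CPM to 31.8 to 33.2. In lists chosen after the data were seen, all 5 cortex and hippocampus markers and all 5 striatum markers fell. All 4 thalamus markers rose, and none of 5 hypothalamus markers was called. The part of these cell types or brain regions in the Wnt gene values was not tested.

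Within the MRX-2843 groups, tumor and naive brain differed at fewer of these genes. Of the 44 tested, 10 were higher in MRX-2843 tumor than in MRX-2843 naive brain and 7 were lower, beside 12.4% and 11.9% of all genes tested and 24.4% in either direction. Wnt9a was at 8.49 and 8.10 CPM in MRX-2843 tumor against 1.15 and 1.54 in MRX-2843 naive brain, a log2 fold change of 2.60 ± 0.23 (adjusted p = 1.3e-06), where the vehicle groups had differed by -3.11. Dkk3 was 2.04 ± 0.06 higher in tumor (adjusted p = 4e-11) and Sfrp1 1.58 ± 0.10 higher (adjusted p = 5.7e-08). Sfrp5 changed by -2.80 ± 0.23 (adjusted p = 6.9e-07), Sfrp2 by -2.04 ± 0.37 (adjusted p = 0.00082) and Wnt6 by -3.38 ± 0.53 (adjusted p = 0.00023).

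Wnt10a, Lrp5, Fzd5, Fzd6, Fzd7, Lrp6 and Fzd3 were also higher in MRX-2843 tumor, at log2 fold changes of 1.63, 0.72, 1.08, 0.47, 0.87, 0.44 and 0.24. Of these, Wnt10a moved to 2.62 without MRX-2843 naive brain library 2, Lrp5 to 0.47 without MRX-2843 tumor library 2, and Fzd7 and Fzd3 to 0.54 and 0.14, no longer called, without MRX-2843 tumor library 1. Fzd3 was also not called without either library of the naive brain groups (0.22 to 0.25), Fzd6 without any library of the groups compared (0.40 to 0.54), and Fzd5 without MRX-2843 naive brain library 1 or MRX-2843 tumor library 2 (0.89 and 0.96). Fzd1, with 7.75 and 7.18 CPM in naive brain and 9.42 and 6.31 in tumor, did not pass the test here (0.08 ± 0.17, adjusted p = 0.813), nor did Lef1 (0.11 ± 0.24, adjusted p = 0.827), Tcf7 (0.02 ± 0.18, adjusted p = 0.98) or Axin2 (-0.13 ± 0.11, adjusted p = 0.482). Rspo4 was lower in tumor (-4.23 ± 0.80, adjusted p = 0.00121), as were Wnt2, Wnt5a and Fzd9 (-1.37, -0.81 and -0.57); the Rspo4 value became -9.65 without MRX-2843 tumor library 1. Wnt2 was not called without any of the 4 libraries compared (-1.47 to -1.25), nor Fzd9 without MRX-2843 naive brain library 2 or MRX-2843 tumor library 1 (-0.46 and -0.42). Wnt3a had 20 and 10 counts in MRX-2843 naive brain and 0 in each MRX-2843 tumor library. Beside these genes, all 8 oligodendrocyte markers were higher in MRX-2843 tumor, summing to 14100 to 14570 CPM against 7539 to 7611 in MRX-2843 naive brain, as were all 6 dividing cell markers and all 5 cortex and hippocampus markers, the latter in a list chosen after the data were seen. Of 10 neuron markers 2 were higher and 4 lower, summing to 4310 to 4327 CPM against 4003 to 4085. Of 9 mural and fibroblast markers 2 were higher and 5 lower, and of 7 microglia markers 6 were higher. Among the region lists chosen after the data were seen, 3 of 5 hypothalamus markers were lower. Of 4 thalamus markers 3 were lower and 1 higher. The part of these differences in the Wnt gene values was not tested.

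**Figure D4:**
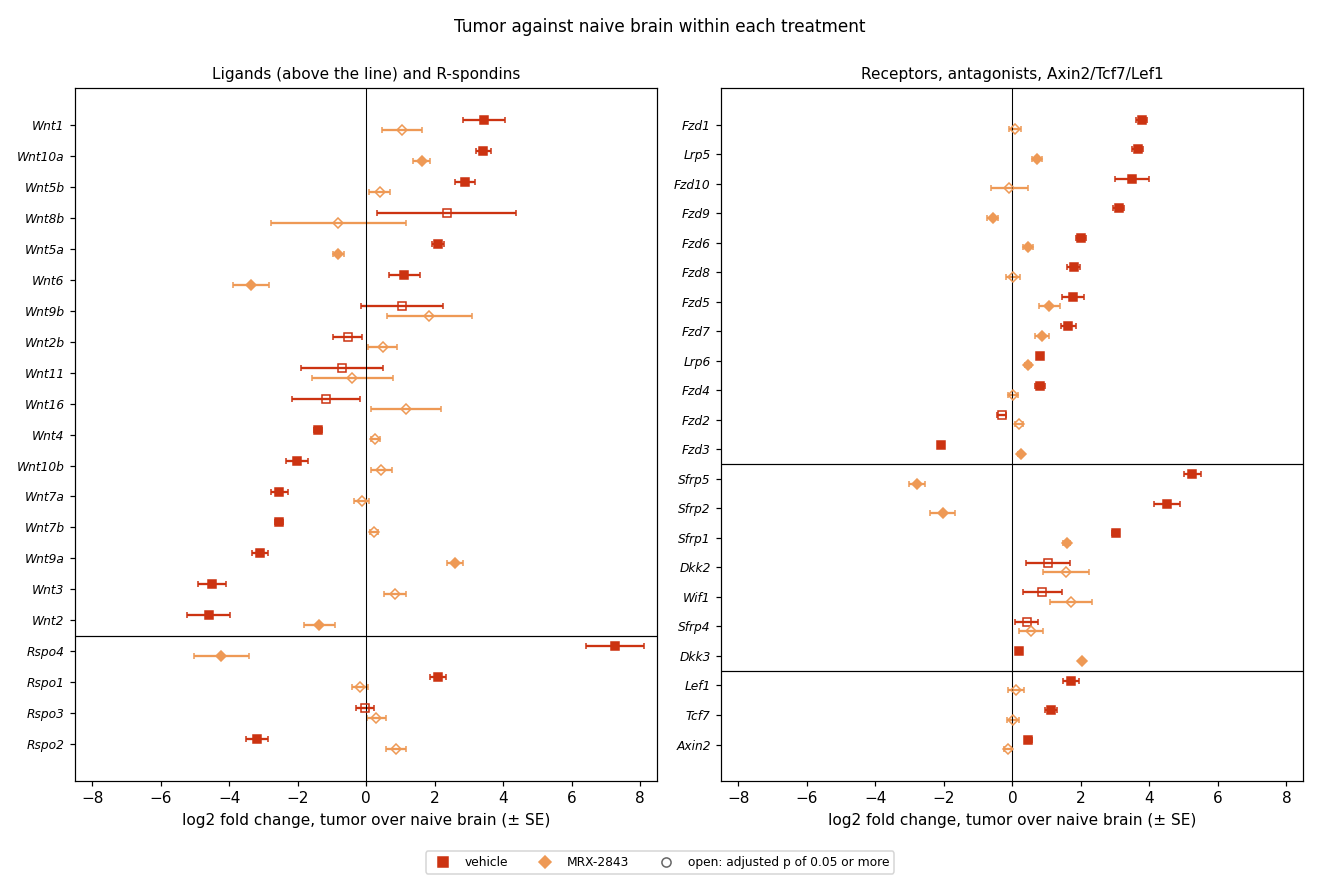
Log2 fold change of tumor over naive brain with its SE for 43 genes, in the vehicle groups (squares) and in the MRX-2843 groups (diamonds); filled symbols have an adjusted p under 0.05, and Wnt3a, with 0 counts in both MRX-2843 tumor libraries, is left out. The vehicle values run from -4.60 (Wnt2) to 7.27 (Rspo4). Genes on opposite sides of 0 in the treatments include Wnt9a, Sfrp5, Sfrp2, Rspo4, Wnt6, Wnt5a, Fzd9 and Fzd3.

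The difference between the treatments in the tumor effect was tested by the interaction term. It passed for 33 of the 44 genes, 22 with a lower tumor effect under MRX-2843 and 11 with a higher one, beside 25.3% and 26.3% of all genes tested and 51.6% in either direction. The term was negative and called for 9 of 12 receptors, among them Fzd1 (-3.69 ± 0.23, adjusted p = 2.5e-09), and for Axin2, Lef1 and Tcf7. Axin2 and Tcf7 were not called between the tumor groups with TMM and were called higher in MRX-2843 naive brain than in vehicle naive brain. Their terms therefore also carry the difference between the naive brain groups. The same held for Rspo1 and Wnt4, likewise not called between the tumor groups with TMM but called between the naive brain groups. Dkk3 had a positive term (1.85), although it was lower under MRX-2843 in tumor as well as in naive brain. The interaction term was positive and called for 7 of 18 ligands, led by Wnt9a (5.71 ± 0.32, adjusted p = 9.2e-10) and Wnt3 (5.34 ± 0.51, adjusted p = 3.8e-07). Wnt9a, unlike Wnt3, was also called between the naive brain groups.

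Set directly against vehicle tumor, MRX-2843 tumor was lower at 21 and higher at 10 of the 44 genes, beside 29.8% and 30.6% of all genes tested and 60.4% in either direction, at a median log2 fold change of -0.64 against 0.03 over all genes. With library totals in place of TMM the counts were 26 lower and 9 higher. This comparison shares the vehicle tumor libraries with the first, so that genes high or low in those libraries move in each. Fzd1 differed by -3.64 ± 0.16 (adjusted p = 4.1e-11), Lrp5 by -3.33 ± 0.15 (adjusted p = 3.3e-11), Wnt10a by -3.87 ± 0.23 (adjusted p = 8.4e-10) and Sfrp5 by -4.66 ± 0.24 (adjusted p = 1.7e-10). Among the genes that were higher in MRX-2843 tumor, Wnt3 differed by 5.26 ± 0.41 (adjusted p = 2.4e-08), Fzd3 by 1.83 ± 0.08 (adjusted p = 5.1e-11) and Wnt7b by 1.75 ± 0.11 (adjusted p = 2.6e-09).

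Wnt5a, at 3.94 and 5.13 CPM, was at its lowest level in MRX-2843 tumor. Lef1 was lower than in vehicle tumor (-1.85 ± 0.24, adjusted p = 7.4e-06), while Axin2 (-0.18 ± 0.11, adjusted p = 0.166) and Tcf7 (-0.35 ± 0.18, adjusted p = 0.104) did not pass the test with TMM and did with library totals. Of the 10 beta-catenin target genes 7 were lower and none higher, and the list summed to 106 to 108 CPM in MRX-2843 tumor, 60.6 to 63.4 in MRX-2843 naive brain, 104 to 108 in vehicle naive brain and 607 to 618 in vehicle tumor. Against MRX-2843 naive brain, 4 of the 10 were higher in MRX-2843 tumor and 1 was lower, beside 12.4% and 11.9% of all genes tested. Beside this, the neuron markers summed to 4310 to 4327 CPM in MRX-2843 tumor against 527 to 532 in vehicle tumor, the oligodendrocyte markers to 14100 to 14570 against 487 to 501, and the mural and fibroblast markers to 200 to 217 against 10450 to 10580. The part of these differences in cell type markers was not tested.

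The naive brain groups differed from each other as well. Of the 44 genes, 7 were higher and 10 lower in MRX-2843 naive brain than in vehicle naive brain, beside 9.78% and 11.7% of all genes tested and 21.5% in either direction, and of 12 receptors Fzd3 passed, at a log2 fold change of -0.49 ± 0.08 (adjusted p = 0.00041). Fzd7 (-0.62, adjusted p = 0.0519) and Lrp5 (-0.40, adjusted p = 0.0826) did not, but passed as lower under 13 and 9 of the 17 other settings. Wnt9a was at 1.15 and 1.54 CPM against 12.1 and 14.1 (-3.26 ± 0.23, adjusted p = 1.2e-07), Dkk3 at 47.0 and 45.3 against 247 and 228 (-2.36 ± 0.06, adjusted p = 2.5e-12), and Rspo2 at 1.60 and 3.26 against 10.9 and 13.3 (-2.29 ± 0.31, adjusted p = 6.4e-05). Wnt10a, Rspo3, Wnt4, Wnt7b, Wif1 and Sfrp1 were lower too, at -2.07, -1.53, -1.37, -1.03, -2.16 and -0.43. Wif1 was not called without any of the 4 libraries (-2.43 to -1.98), nor Sfrp1 without MRX-2843 naive brain library 2 (-0.35).

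Sfrp5 was at 12.6 and 12.5 CPM in MRX-2843 naive brain against 0.746 and 1.64 (3.40 ± 0.24, adjusted p = 1e-07), Rspo1 at 10.5 and 7.82 against 2.99 and 1.79 (1.93 ± 0.24, adjusted p = 3.8e-05), and Wnt2 at 7.51 and 8.79 against 1.87 and 2.12 (2.03 ± 0.47, adjusted p = 0.00527). None of these genes overlapped between the groups. Sfrp2, Tcf7 and Axin2 were higher at 2.15, 0.75 and 0.41, and Rspo4 was higher at 4.88, or 9.61 without vehicle naive brain library 1. Axin2 was not called without MRX-2843 naive brain library 1 (0.23) or vehicle naive brain library 2 (0.37), nor Tcf7 without vehicle naive brain library 1 (0.68) or MRX-2843 naive brain library 2 (0.58).

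Markers of brain regions, in lists chosen after the data were seen, moved with the naive brain groups. The 5 cortex and hippocampus markers all fell, from 262 to 266 CPM in vehicle naive brain to 27.8 to 29.2 in MRX-2843 naive brain. The 5 striatum markers all rose, from 272 to 1244 and 1307, and 3 of 5 hypothalamus markers rose, Avp and Oxt among them, named after their values were seen, and the list went from 3.54 to 4.10 to 151 to 168. In MRX-2843 tumor the cortex and hippocampus list was at 152 to 160 CPM, the striatum list at 1249 to 1337 and the hypothalamus list at 3.67 to 4.20. Thalamus, cerebellum and hindbrain lists were at 32.3 to 32.9, 24.9 to 27.6 and 0 CPM in vehicle naive brain and at 40.5 to 43.6, 40.3 to 44.0 and 0.205 to 0.206 in MRX-2843 naive brain. All 5 erythrocyte markers were lower in MRX-2843 naive brain than in vehicle naive brain, summing to 73.3 to 77.5 CPM against 939 to 1002, and of 10 neuron markers 6 were lower and 2 higher, summing to 4003 to 4085 against 7348 to 7482. The choroid plexus list summed to 26.2 to 28.8 CPM against 7.32 to 8.09, with 1 of 7 genes higher, and its marker Ttr was at 2.13 and 3.15 against 3.10 and 3.49. The part of cell type or brain region in the Wnt gene values was not tested, and in the naive brain groups region, sex and treatment cannot be told apart.

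**Figure D5:**
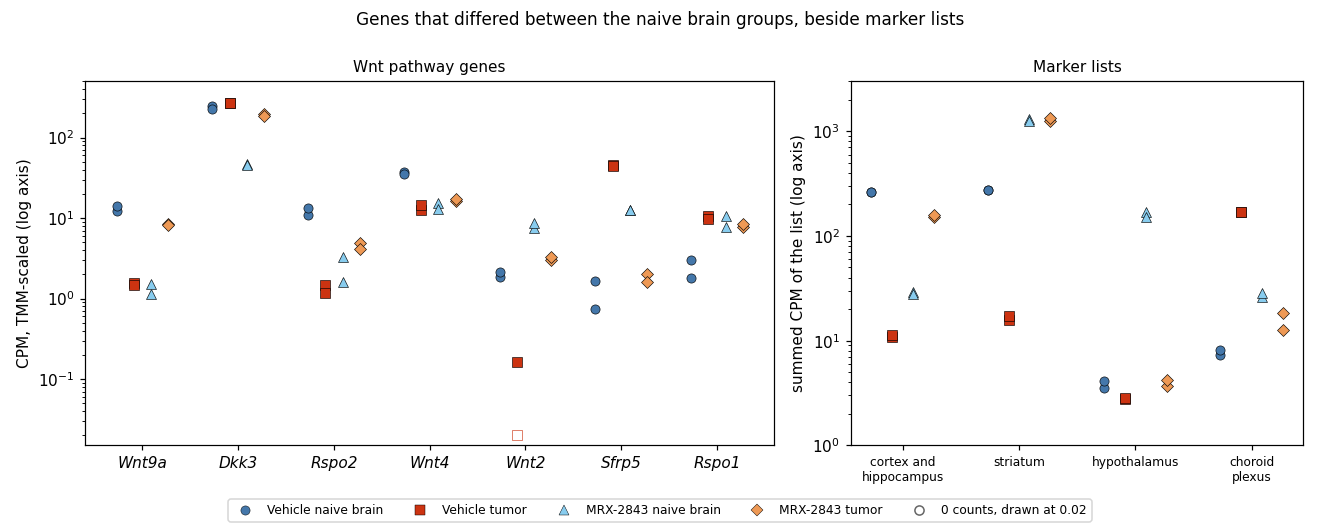
Left, 7 Wnt pathway genes that differed between the naive brain groups, in CPM per library (log axis); right, summed CPM of 4 marker lists per library (log axis). Wnt9a, Dkk3, Rspo2 and Wnt4 are lower and Wnt2, Sfrp5 and Rspo1 higher in MRX-2843 naive brain than in vehicle naive brain. The cortex and hippocampus list is at 27.8 to 29.2 in MRX-2843 naive brain and at 262 to 266 in vehicle naive brain.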

How the data were processed

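The authors deposited raw read counts per gene, whole numbers for 55414 genes in 8 libraries, not normalized. Per the submitters' processing notes STAR 2.7.7a, SAMtools, featureCounts and Subread were used with builds hg38 and mm10; the role of each, the strand setting and the gene annotation are not given in the sources used here. Without strand, reads of the 9 genes that overlap an antisense gene in exons (Fzd5, Fzd6, Sfrp2, Lef1, Wnt5a, Wnt7b, Wnt11, Rspo3 and Axin2) cannot be told apart from that gene's. Of counts from 1 to 100, 74.6 to 78.7% were even, and the reason is not given.

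The model was edgeR 4.0.16 run under R 4.3.3 (TMM, filterByExpr with a minimum count of 10, 4 group means over 8 libraries, 4 residual degrees of freedom, quasi-likelihood test, Benjamini-Hochberg adjustment over 24356 genes, common coefficient of variation 21.0%). Genes are called at an adjusted p under 0.05, and an SE is the size of a log2 fold change divided by the root of its F statistic. With 2 against 2 libraries an exact permutation test could not go below p = 0.333, so none was used. Gene positions and exon lengths are GENCODE M21 on GRCm38, where 94.0% of identifiers matched without their version. The fit was tested on simulated data that gave every gene the same spread and changed only genes at higher levels. That test does not cover genes at low levels. Alternatives were RLE scaling, library totals, DESeq2 1.42.0, no filter, a stricter filter, a replicate block, only the groups compared and leaving out each library; halved counts and a fit without the MRX-2843 tumor libraries were added after the data were seen. Replicate numbers were checked for pairing. Intervals were not drawn for levels, and floors cover counting error only.

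The Wnt genes and all lists were chosen with earlier results of these data known. Every Wnt gene may be named; from each pathway list up to 4 genes with the smallest adjusted p in vehicle tumor against vehicle naive brain, and from each cell list its sum and first genes. Tables and plots used Python 3.11.15, pandas 2.3.3, NumPy 2.4.6 and matplotlib 3.10.9.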

Additional observations from a re-analysis of the deposited data

Results flagged for a closer look

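The tumor effect, tumor against naive brain on the log2 scale, differed between MRX-2843 and vehicle for 33 of the 44 genes tested. This was by the interaction term of edgeR's quasi-likelihood test, with an adjusted p under 0.05 over all genes. The same term passed for 51.6% of all 24356 genes tested. The values below are the MRX-2843 effect minus the vehicle effect. Among ligands it was 5.71 for Wnt9a, 5.34 for Wnt3, 3.24 for Wnt2, 2.78 for Wnt7b, 2.46 for Wnt10b, 2.40 for Wnt7a and 1.67 for Wnt4. It was -4.49 for Wnt6, -2.91 for Wnt5a, -2.48 for Wnt5b, -2.39 for Wnt1 and -1.80 for Wnt10a. Leaving out vehicle tumor library 1 moved Wnt2 to 8.78, and leaving out MRX-2843 naive brain library 2 moved Wnt10a to -0.80 and Wnt1 to -0.84, the latter no longer called. Wnt1 was also not called without library 2 of the other groups (-2.22 to -2.10).

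Among receptors the difference was -3.69 for Fzd1, -3.68 for Fzd9, -3.57 for Fzd10, -2.93 for Lrp5, -1.77 for Fzd8, -1.52 for Fzd6, -0.78 for Fzd4, -0.77 for Fzd7 and -0.37 for Lrp6. It was 2.32 for Fzd3 and 0.50 for Fzd2. Without MRX-2843 tumor library 2 the Fzd10 value was -5.53. With library totals Lrp6 was at -0.59 and Fzd2 at 0.29, not called. Calls were lost on leaving out 1 library for Fzd2 (6 libraries, 0.35 to 0.52), Fzd7 (4 libraries, -0.74 to -0.51) and Lrp6 (4 libraries, -0.36 to -0.27).

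Among antagonists it was -8.05 for Sfrp5, -6.56 for Sfrp2, -1.44 for Sfrp1 and 1.85 for Dkk3. Among R-spondins it was -11.5 for Rspo4, a gene with 0 counts in 2 libraries, -2.27 for Rspo1 and 4.06 for Rspo2. It was -1.61 for Lef1, -1.10 for Tcf7 and -0.59 for Axin2. All these values also carry any difference between the naive brain groups, which was called for Wnt9a, Dkk3, Wnt4 and Rspo1 among others. Treatment cannot be told apart from sex in these groups, and the part of cell type or region in the differences was not tested.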

How the results depend on the processing

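No direction of a called gene reversed under the 17 other settings. Over these settings 22 to 24 of the Wnt genes were called higher and 9 to 10 lower in vehicle tumor against vehicle naive brain, 7 to 12 and 5 to 7 in MRX-2843 tumor against MRX-2843 naive brain, 9 to 11 and 21 to 26 in MRX-2843 tumor against vehicle tumor, 6 to 7 and 9 to 12 in MRX-2843 against vehicle naive brain, and 10 to 11 and 19 to 22 for the interaction. Of all genes, 13098 to 14973, 4666 to 6477, 13389 to 15113, 3835 to 5795 and 11582 to 12936 were called in either direction in the same order. Of 3526 gene values under alternatives, 67 lost and 61 gained a call, and 57 that were called under neither setting changed sign. Calls were lost under at least 1 setting for Wnt6 and Dkk3 in the first comparison, for Fzd3, Fzd5, Fzd6, Fzd7, Fzd9, Rspo4 and Wnt2 in the second, for Wnt2b in the third, for Axin2, Sfrp1, Tcf7, Wif1 and Wnt2 in the fourth and for Fzd2, Fzd7, Lrp6, Wnt1 and Wnt2 in the interaction; the cause was not tested. Calls were gained under at least 1 setting for Fzd2 in the first comparison, for Fzd10, Rspo2, Wif1, Wnt1, Wnt3 and Wnt3a in the second, for Axin2, Fzd5, Rspo1, Tcf7, Wif1, Wnt3a and Wnt4 in the third and for Fzd7, Lrp5 and Wnt5b in the fourth. Without both MRX-2843 tumor libraries the counts higher and lower were 24 and 9 in the first and 7 and 12 in the fourth comparison. Library totals in place of TMM shifted the median of all genes by 0.24 in the first and -0.21 in the third comparison, where 58.4% and 42.6% of called genes were higher against 48.7% and 50.6% with TMM.

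With the replicate block the counts higher and lower were 23 and 9, 11 and 7, 10 and 21, 7 and 11, and 11 and 22 in the same order. Deviations from the group mean of libraries with the same replicate number correlated at -0.007 to 0.018 between groups. What both libraries of a group share cancels in these deviations. They therefore cannot show whether groups share an animal or a batch. The tested ligands under 1 CPM in every library were Wnt3a, Wnt8b, Wnt9b, Wnt11 and Wnt16. With 2 libraries per group, their SEs were 0.99 to 2.04 in the first comparison. A difference no larger than its SE would not be called, and the smallest detectable difference was not computed.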
